A study of Mus musculus with 24 samples.

Results

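The 52 genes described here encode the machinery of cell division: cyclin-dependent kinase 1 with its cyclins and phosphatases, the mitotic kinases, the spindle assembly checkpoint, the anaphase and cyclin destruction genes, the centromere and kinetochore, the chromosomal passenger complex, spindle motors, cytokinesis proteins, chromosome structure proteins and the transcription factors Foxm1 and Mybl2. They were matched by symbol from a fixed list, and all 52 were found among the 9262 loci with expression values. RNA came from 3T3-L1 cells, a mouse pre-adipocyte line, at passages 12 to 15, transfected with an siRNA against 14-3-3ζ (si14-3-3ζ cells) or with a control siRNA (siCon cells). Induction with 172 nM insulin, 500 µM IBMX, a phosphodiesterase inhibitor, and 500 nM dexamethasone, a glucocorticoid, began 24 h after transfection in all cells, and RNA was sampled at 0, 24 and 48 h, with 4 libraries in each of the 6 groups and 24 in all. The labels do not tell whether the 4 libraries of a group came from separate cultures, and the study's methods speak of independent experiments without naming the sequencing, so the p-values measure the spread between libraries, which may be technical, and 3T3-L1 is 1 clonal line in culture.

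Confluent 3T3-L1 cells given this hormone mixture are known to re-enter the cell cycle and divide before they turn into fat cells, a step called mitotic clonal expansion. In mitosis, Cdk1 bound to a B-type cyclin drives entry, kinetochores built on the centromere attach chromosomes to spindle microtubules, and the checkpoint holds back the anaphase-promoting complex (APC/C) until every chromosome is attached. The genes for these proteins are transcribed mainly late in the cell cycle, under the DREAM complex, which represses them in resting cells, and under B-Myb (Mybl2) and Foxm1, which activate them. 14-3-3 proteins bind phosphorylated partners, the Cdc25 phosphatases among them.

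Expression is given as FPKM (fragments scaled to transcript length and to the number of mapped fragments), with the values of a group in the order of replicates 1 to 4. No read counts were used, so the depth behind a value is unknown. Each library summed to between 474548 and 642146 FPKM over the listed loci, 15 to 78 of which were at 0. Ywhaz, the gene of 14-3-3ζ, lay at 21.9 to 55.5 FPKM over the 12 si14-3-3ζ libraries and at 154 to 271 FPKM over the 12 siCon libraries. Of 11 pre-adipocyte markers 9 were listed, and their summed FPKM was lower in si14-3-3ζ cells at 0 h (4122 to 5701, against 6043 to 7704 in siCon cells) and at 24 h (3139 to 4343, against 5143 to 6152), and overlapped at 48 h (3442 to 4238, against 4029 to 6819). Of 14 markers of other cell types only Des was listed, at 0.756 to 6.14 FPKM. In a principal component analysis of all loci, libraries numbered 1 and 3 stood apart from those numbered 2 and 4 in si14-3-3ζ cells at 24 and 48 h and in siCon cells at each time. In si14-3-3ζ cells at 0 h the gap was smaller, with component 3 at -4.31 and -2.24 against -0.89 and 1.60. The meaning of the numbers is not stated in the labels or methods. Results were therefore also computed within libraries 1 and 3 and within libraries 2 and 4, a choice made after the data were seen. Shares of all loci called are given only for the fit of all 24 libraries. Counts of called genes from any other fit stand without such a share, so they may follow a change in calls over all loci.

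To see what the promoters of these genes have in common, windows from 250 bases before to 50 bases after the annotated start were taken from RefSeq (mouse build GRCm38.p6, which is not the build of the expression values). They were matched for 42 of the 52 genes, in 45 windows, since Bub3, Ect2 and Prc1 have 2 overlapping windows each, and not for Ccna2, Cdc25c, Aurkb, Incenp, Spc24, Tpx2, Kif20a, Dlgap5, Smc4 and Foxm1. Each window was searched on both strands for the cell cycle homology region (CHR, TTTGAA), the site at which DREAM and B-Myb or Foxm1 complexes are known to bind, for the CCAAT box (CCAAT), bound by NF-Y, and for E2F letters, which were TTCCCGC and likewise the variant TTGGCGC, the variant TTGCCGC and the variant TTCGCGC. None of these motifs contains another, but E2F letters can overlap a CCAAT box, as they do in Ccnb1 and Ect2. With 1 window a gene, CHR letters were in 30 of the 42 genes, 71.4%, and in 18.1% of all 27025 genes with a window. A CCAAT box was in 31 genes, 73.8%, against 37.9% of all genes, and E2F letters in 8, 19.0%, against 9.69%. Both CHR and CCAAT letters were in 27 genes, 64.3%, against 7.12% of all genes.

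The promoters of 6 genes on which the results below turn, each from another part of the division machinery, are printed from 120 bases before the start to base 25 of the transcript, with CHR and CCAAT letters on either strand in capitals (TTTGAA or TTCAAA, and CCAAT or ATTGG).
Cdk1 (chr10:69352888-69353032, minus strand): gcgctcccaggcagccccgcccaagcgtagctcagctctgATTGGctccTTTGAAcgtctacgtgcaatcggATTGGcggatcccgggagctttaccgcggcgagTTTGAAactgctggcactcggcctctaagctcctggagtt
Cdc20 (chr4:118437319-118437463, minus strand): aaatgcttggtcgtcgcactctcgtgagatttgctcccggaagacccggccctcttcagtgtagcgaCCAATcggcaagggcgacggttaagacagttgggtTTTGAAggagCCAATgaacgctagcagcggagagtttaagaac
Cenpa (chr5:30666766-30666910, plus strand): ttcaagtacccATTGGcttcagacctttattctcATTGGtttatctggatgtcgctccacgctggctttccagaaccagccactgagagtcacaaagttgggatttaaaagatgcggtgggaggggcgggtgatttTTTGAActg
Kif11 (chr19:37376262-37376406, plus strand): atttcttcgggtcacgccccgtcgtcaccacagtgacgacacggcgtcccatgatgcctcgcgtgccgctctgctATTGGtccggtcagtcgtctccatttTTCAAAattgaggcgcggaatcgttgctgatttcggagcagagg
Top2a (chr11:99024165-99024309, minus strand): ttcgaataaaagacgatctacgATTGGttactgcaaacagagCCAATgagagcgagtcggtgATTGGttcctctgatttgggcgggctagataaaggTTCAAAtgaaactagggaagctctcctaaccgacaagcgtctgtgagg
Kif23 (chr9:61946775-61946919, minus strand): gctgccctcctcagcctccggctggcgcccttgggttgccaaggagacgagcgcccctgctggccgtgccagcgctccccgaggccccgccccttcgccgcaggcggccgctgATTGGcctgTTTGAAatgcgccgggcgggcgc
Each stretch holds 1 to 3 CCAAT boxes and 1 CHR, except that of Cdk1, which holds 2. Of the 38 CHR matches in the promoters of the 42 genes (1 window a gene) 28, 73.7%, began no more than 50 bases before the start or after it, compared with 24.8% of the CHR matches of all genes. Of the 71 CCAAT boxes 50, 70.4%, began in the 120 bases before the start, compared with 51.6% in all genes. Kif23, the one gene called higher in si14-3-3ζ cells at 48 h, carries both kinds of letters, as do Cdk1 and Top2a, which were called lower. Neither was found in the windows of Melk, Mad2l1, Pttg1, Nuf2, Birc5, Nusap1, Ncaph and Mybl2. These are matches of letters, not measured binding.

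**Figure D1:**
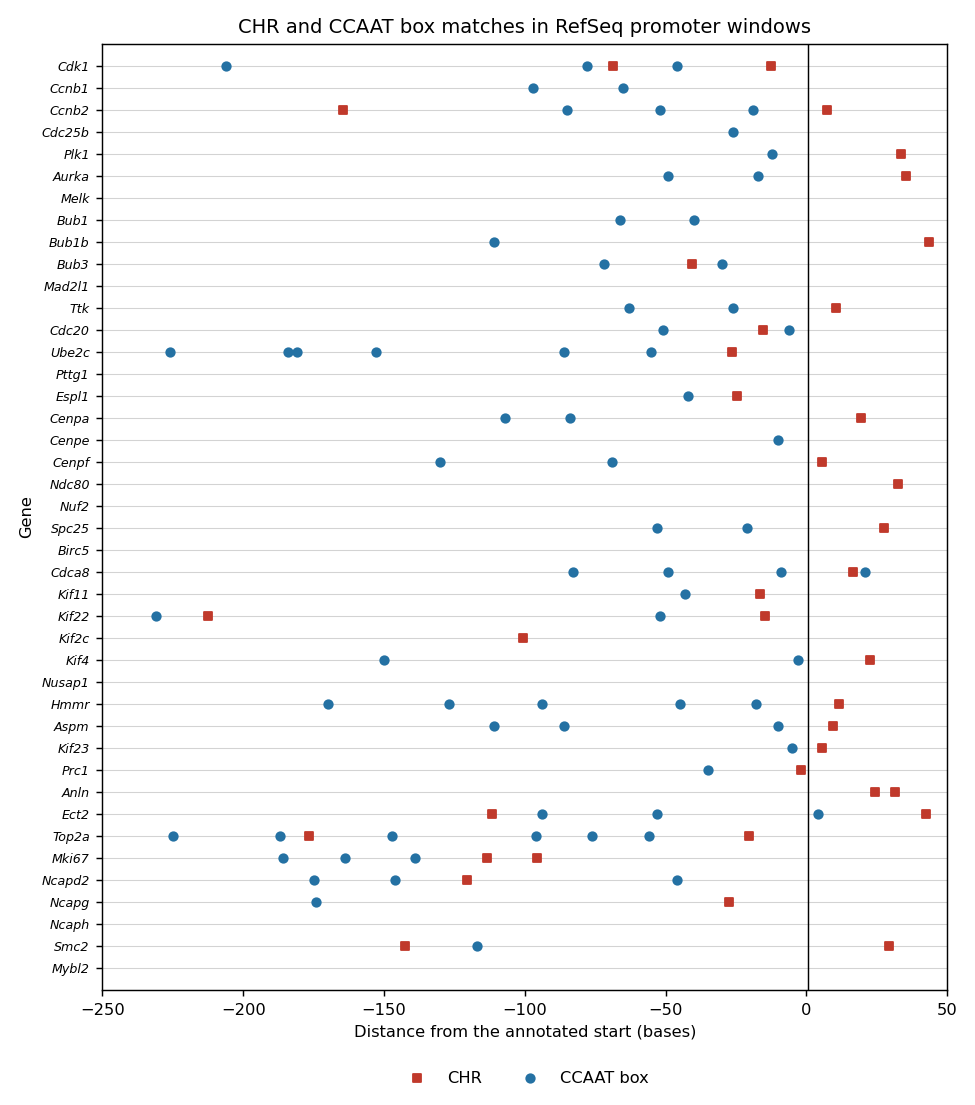
Positions of CHR letters (squares) and CCAAT boxes (circles) in the RefSeq promoter windows of 42 genes of mitosis, by distance in bases from the annotated start (vertical line). Where a gene has 2 windows, the one drawn is the first with a match. Counting the first window of each gene, 73.7% of CHR matches begin from 50 bases before the start onwards, and 70.4% of CCAAT boxes lie in the 120 bases before it.

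The whole set was higher after 24 h of induction than before it. In si14-3-3ζ cells all 52 genes were called higher at 24 h than at 0 h by limma on log2(FPKM + 1) (adjusted p under 0.05), where 28.3% of the 9251 tested loci were called higher, and in siCon cells all 52 were called higher, where 30.8% of loci were. The 24 h libraries lay above every 0 h library for each of the 52 genes in both kinds of cells, a separation that 26.3% of loci showed in si14-3-3ζ cells, against 25.7% in siCon cells. Median fold changes in mean FPKM were 5.99 in si14-3-3ζ cells (1.49 to 9.01) and 6.48 in siCon cells (1.45 to 9.26). The smallest belonged to Kif22, whose locus also holds Maz, a gene of another function from which it cannot be told apart in the table. Kif22 was therefore left out of sums over the set, which then hold 51 genes, a choice made after its values were seen.

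On the second day the genes fell back, further in si14-3-3ζ cells. All 52 were called lower at 48 h than at 24 h in si14-3-3ζ cells, where 12.8% of loci were called lower, and 50 of 52 in siCon cells, where 17.4% of loci were. The exceptions in siCon cells were Kif22 and Nusap1. The fall had a median of -1.36 on the log2 scale in si14-3-3ζ cells (-1.67 to -0.40) and of -0.77 in siCon cells (-1.38 to -0.08), while the median of all loci was -0.0025 in si14-3-3ζ cells, against -0.02 in siCon cells. At 48 h the genes still stood above 0 h: 51 of 52 were called higher in si14-3-3ζ cells, Kif22 not among them, and 52 of 52 in siCon cells, against 26.5% and 33.9% of loci. Of the FPKM gained on the first day, a median of 25.8% over 51 genes was left at 48 h in si14-3-3ζ cells (13.9 to 41.2%) and 49.7% in siCon cells (21.3 to 74.5%). The share left was smaller in si14-3-3ζ cells for 50 of the 51 genes, and Kif23 was the one it was not.

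**Figure D2:**
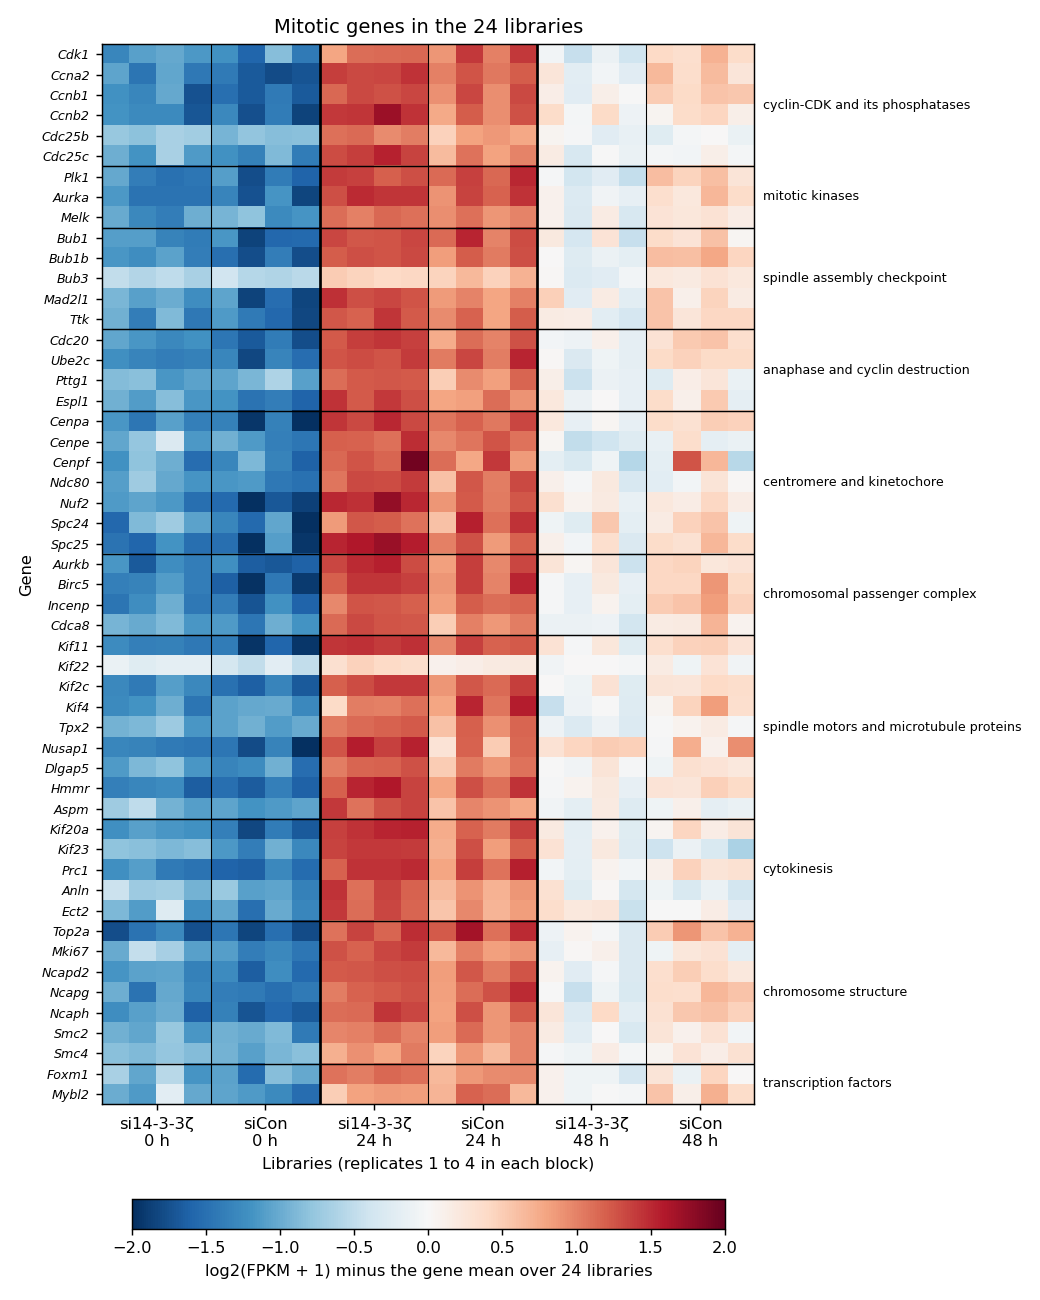
Log2(FPKM + 1) of the 52 genes in the 24 libraries, each gene set relative to its own mean over all libraries (colour scale from -2 to 2) and grouped by role, with si14-3-3ζ libraries left of siCon libraries at each time. By group mean, all 52 genes are lowest at 0 h and highest at 24 h in both kinds of cells, and Kif22 varies least.

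The summed FPKM of the 51 genes shows the same course in single libraries. At 0 h it was 580.1, 562, 613 and 509.5 in si14-3-3ζ cells, against 527, 423, 534 and 430.2 in siCon cells. At 24 h the sums were 2975, 3159.6, 3222 and 3223 in si14-3-3ζ cells, against 2311, 3048, 2552 and 3136 in siCon cells. By 48 h they stood at 1374, 1130.4, 1334 and 1107 in si14-3-3ζ cells, against 1587, 1638, 1802 and 1563 in siCon cells. At 48 h every si14-3-3ζ library lay below every siCon library, whereas at 0 and 24 h the groups overlapped, with siCon replicates 1 and 3 the highest of siCon cells at 0 h and the lowest at 24 h. Comparing libraries of the same number, the si14-3-3ζ library was the higher of each pair at 0 and 24 h and the lower at 48 h. The sum took 0.0930 to 0.122% of all listed FPKM in si14-3-3ζ cells at 0 h (0.0721 to 0.102% in siCon cells), 0.564 to 0.641% at 24 h (0.441 to 0.522% in siCon cells) and 0.198 to 0.284% at 48 h (0.255 to 0.311% in siCon cells). On this scale the groups were apart at 24 h, with si14-3-3ζ cells higher, and overlapped at 0 and 48 h. In bulk RNA, fewer cells in division and less RNA of these genes per dividing cell cannot be told apart.

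**Figure D3:**
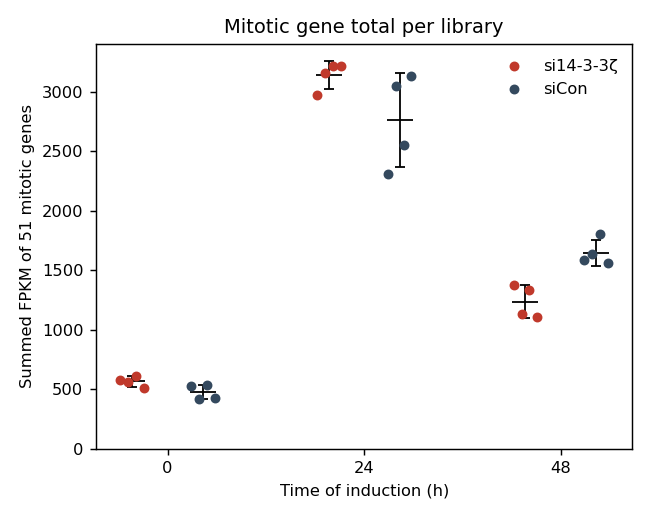
Summed FPKM of 51 genes of mitosis (Kif22 left out) in each of 24 libraries by time of induction, with means and SD (n = 4) as bars. The si14-3-3ζ libraries (red, left at each time) lie at 1107 to 1374 at 48 h, below the 1563 to 1802 of the siCon libraries (dark blue), and at 2975 to 3223 at 24 h, where siCon libraries span 2311 to 3136.

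Before induction, a minority of the genes was higher in si14-3-3ζ cells, by small amounts. At 0 h 11 of 52 were called higher in si14-3-3ζ cells and 0 lower, against 8.1% of loci called higher and 9.16% lower, and 48 of the 52 log2 fold changes were positive (median 0.26, -0.13 to 0.56, all loci 0.01). The 11 were Ccna2, Bub1b, Mad2l1, Cdc20, Espl1, Cenpa, Nuf2, Birc5, Kif11, Kif20a and Mki67. This count was 4 without siCon replicate 2 of 0 h, 3 without siCon replicate 4, 4 without si14-3-3ζ replicate 1, 5 without si14-3-3ζ replicate 2 and 2 without si14-3-3ζ replicate 3, and 4 in a fit of the 8 libraries compared. Only Cdc20 and Nuf2 were called whichever 1 of the 8 libraries was left out. The median difference was 0.20 among libraries numbered 1 and 3 (1 gene called) and 0.31 among those numbered 2 and 4 (20 called).

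At 24 h 17 of 52 genes were called higher in si14-3-3ζ cells and 0 lower, against 14.5% of loci called higher and 14.0% lower. Of the 52 log2 fold changes 46 were positive, with a median of 0.23 (-0.35 to 0.66, all loci 0.02). For 18 genes every si14-3-3ζ library lay above every siCon library, as for 15.4% of loci. Cytokinesis had the most calls for its size, 4 of 5 (Kif20a, Kif23, Anln and Ect2), and 6 of the 17, Cdc20, Espl1, Kif20a, Mad2l1, Mki67 and Nuf2, were also among the 11 of 0 h. The difference depended on the libraries used. The median difference was 0.36 among libraries numbered 1 and 3 (15 called higher) and 0.06 among those numbered 2 and 4 (5 called higher and 3, Cdk1, Bub3 and Kif4, lower), and the count was 4 with libraries 2 to 4 alone. It was 6 without siCon replicate 1 of 24 h, 9 without siCon replicate 3, 11 without si14-3-3ζ replicate 2 and 8 without si14-3-3ζ replicate 3. Of the 17, 6 were called whichever 1 of the 8 libraries was left out, namely Cdc25b, Cdc25c, Espl1, Nuf2, Aspm and Anln.

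At 48 h the direction was the opposite. In si14-3-3ζ cells 25 of 52 genes were called lower and 1, Kif23, higher, against 22.8% of loci called lower and 23.3% higher. The median log2 fold change was -0.32 (-0.76 to 0.38, all loci 0.0059), 48 of 52 were negative, and for 22 genes every si14-3-3ζ library lay below every siCon library, as for 18.1% of loci. All of the kinases Plk1, Aurka and Melk were called lower. So were 3 of 4 chromosomal passenger genes, 3 of 5 checkpoint genes, 4 of 7 chromosome structure genes and 3 of 6 cyclin-CDK genes. The others were 2 of 4 anaphase genes, 4 of 9 spindle genes, 1 of 2 transcription factors, 1 of 7 kinetochore genes and 1 of 5 cytokinesis genes. Although 1 kinetochore gene was called, all 7 had negative values, with a median of -0.28, against -0.24 for the spindle genes. Leaving out any 1 library gave 18 to 28 calls, and 17 of the 25 lower genes, but not Kif23, were called whichever 1 of the 8 libraries compared was left out. The other 8 lower genes were Melk, Ttk, Kif11, Kif2c, Hmmr, Prc1, Ncaph and Mybl2. The median difference was -0.21 among libraries 1 and 3 (16 called lower, 2 higher) and -0.44 among libraries 2 and 4 (30 called lower). At 48 h the pre-adipocyte marker sums given above overlapped between the groups, whereas at 0 and 24 h they were lower in si14-3-3ζ cells. Their part in the differences was not tested.

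**Figure D4:**
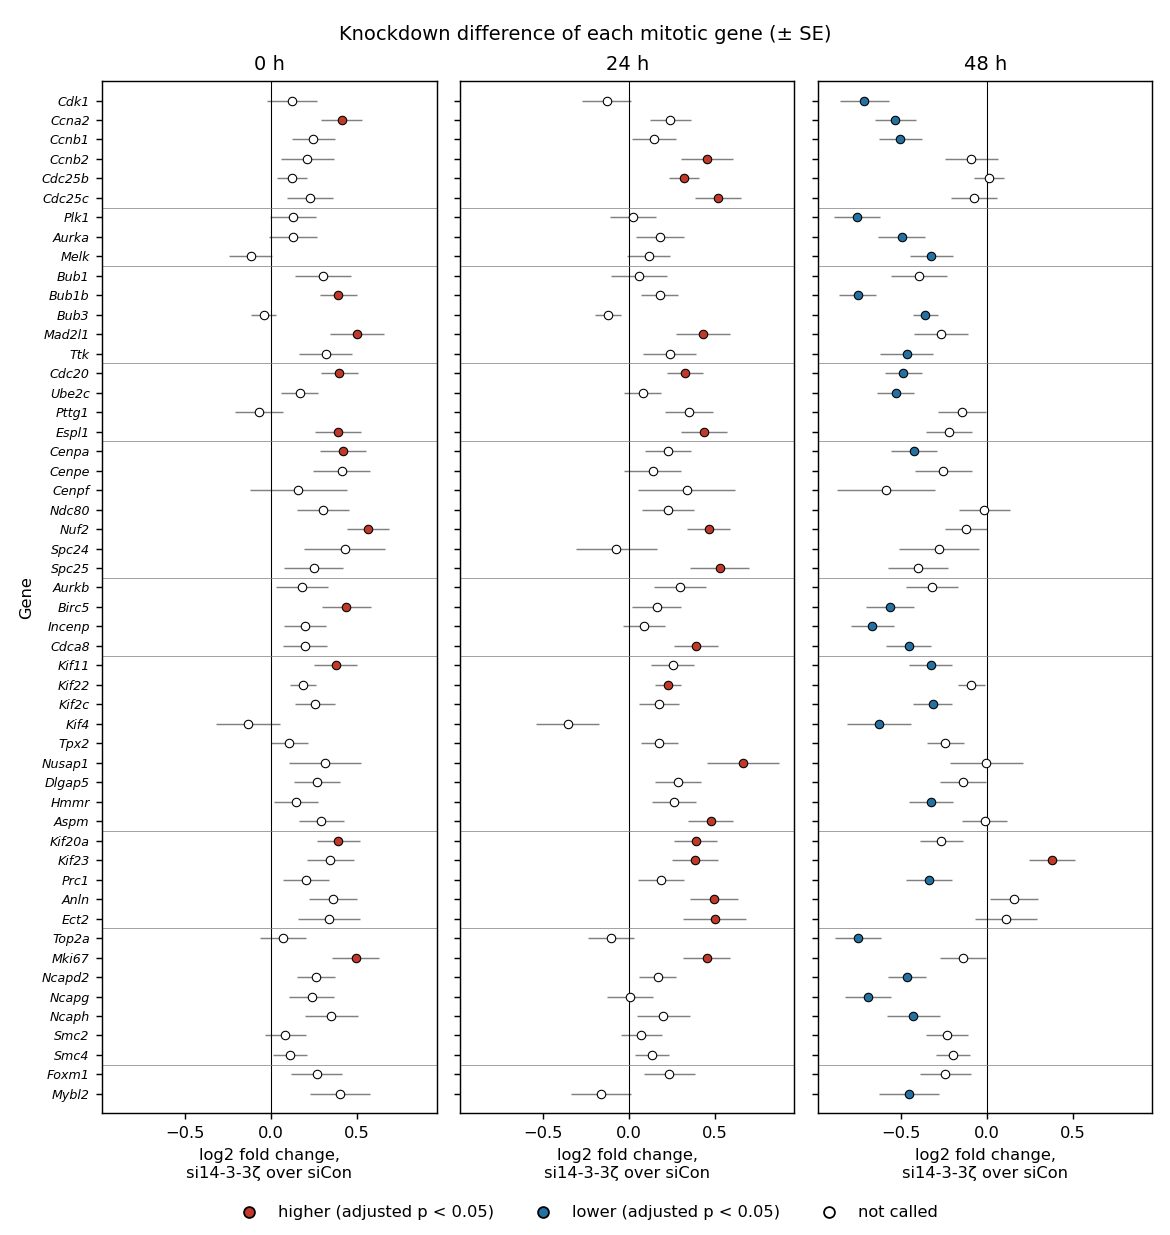
Log2 fold change on the log2(FPKM + 1) scale (si14-3-3ζ over siCon, bars ± SE from limma, n = 4 libraries per group) of each of 52 genes at 0, 24 and 48 h, grouped by role. Filled points passed an adjusted p of 0.05 (red higher, blue lower in si14-3-3ζ cells): 11 higher at 0 h, 17 higher at 24 h, and 25 lower with Kif23 higher at 48 h.

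Whether the response to induction itself differed was tested as the difference between both kinds of cells in the change over time. For the first day 0 of 52 genes were called by limma (1.43% of loci were), 2 had an unadjusted p under 0.05 and the median difference was -0.06. That median changed sign between the splits, at 0.17 among libraries 1 and 3 (43 differences positive, 0 called) and -0.20 among libraries 2 and 4 (42 negative, with Cdk1, Birc5 and Cenpa called lower). For the second day 21 genes were called, all with a deeper fall in si14-3-3ζ cells, against 4.23% of loci in that direction, and all 52 differences were negative (median -0.58, -0.93 to -0.0057). Over the whole 48 h 28 genes were called, all with a smaller net rise in si14-3-3ζ cells, against 9.24% of loci, and 51 of 52 differences were negative (median -0.64, -1.14 to 0.03). The second-day count was 10 without siCon replicate 1 of 24 h, 12 without siCon replicate 3 of 24 h, 11 without siCon replicate 3 of 48 h and 13 without si14-3-3ζ replicate 4 of 48 h. Leaving out any 1 of the 16 libraries compared, 9 genes were called each time for the second day and 20 over 48 h. The second-day median was -0.56 among libraries 1 and 3 (12 called) and -0.51 among libraries 2 and 4 (17 called), and over 48 h the medians were -0.42 (8 called) and -0.77 (28 called).

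Cdk1 (cyclin-dependent kinase 1, chromosome 10, 68799383 to 68815686, minus strand, positions here and below in build NCBIM37), the kinase that drives entry into mitosis, was the most abundant of the set at 24 h. Cdk1 at 0 h had 41.6, 48.9, 50.7 and 46.6 FPKM in si14-3-3ζ cells, against 44.5, 34.3, 57.3 and 38.8 FPKM in siCon cells. Cdk1 at 24 h stood at 182, 229, 231 and 232 FPKM in si14-3-3ζ cells and at 194, 279, 211 and 279 FPKM in siCon cells. Cdk1 at 48 h stood at 100.3, 75.4, 96.1 and 78.8 FPKM in si14-3-3ζ cells, against 138, 132, 170.3 and 135 FPKM in siCon cells. The groups overlapped at 0 and 24 h, and at 48 h all si14-3-3ζ libraries were the lower ones. The log2 fold change at 48 h was -0.71 ± 0.14 (adjusted p = 0.000396), while at 0 and 24 h it was 0.12 and -0.13 with no call.

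Ccnb1 (cyclin B1, chromosome 13, 101548605 to 101556525, minus strand), the partner that activates Cdk1, followed a like course. Ccnb1 at 0 h had 15.6, 14.6, 18.0 and 10.5 FPKM in si14-3-3ζ cells, against 12.6, 11.0, 13.5 and 11.0 FPKM in siCon cells. Ccnb1 at 24 h was at 84.9, 95.3, 92.4 and 96.6 FPKM in si14-3-3ζ cells and at 71.7, 96.4, 72.2 and 95.6 FPKM in siCon cells. Ccnb1 at 48 h was at 41.3, 31.8, 40.8 and 37.2 FPKM in si14-3-3ζ cells and at 54.0, 49.1, 56.3 and 55.4 FPKM in siCon cells. Only the 48 h libraries separated, with si14-3-3ζ cells lower, and the log2 fold change there was -0.50 ± 0.13 (adjusted p = 0.00278). Ccna2 (cyclin A2) was called higher at 0 h (0.41) and lower at 48 h (-0.53), whereas Ccnb2 (cyclin B2) and the Cdk1-activating phosphatases Cdc25b and Cdc25c were called higher at 24 h (0.46, 0.32 and 0.52) and had 48 h values of -0.09, 0.012 and -0.07 with no call.

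Plk1 (polo-like kinase 1, chromosome 7, 129302951 to 129313389, plus strand), which acts on centrosomes and at mitotic entry, had the largest called fall at 48 h. Plk1 at 0 h had 11.1, 8.49, 7.80 and 8.13 FPKM in si14-3-3ζ cells, against 10.6, 6.24, 8.43 and 7.21 FPKM in siCon cells. Plk1 at 24 h reached 64.4, 62.7, 55.8 and 59.5 FPKM in si14-3-3ζ cells and 53.2, 62.8, 53.7 and 69.6 FPKM in siCon cells. Plk1 at 48 h was down at 23.3, 18.3, 20.2 and 16.8 FPKM in si14-3-3ζ cells, against 37.0, 32.7, 36.7 and 28.8 FPKM in siCon cells. The groups were mixed at 0 and 24 h and fully apart at 48 h. Its log2 fold change at 48 h was -0.76 ± 0.13 (adjusted p = 0.000108), and 20.8% of its first-day gain was left in si14-3-3ζ cells against 49.7% in siCon cells. Aurka (aurora kinase A, needed for spindle poles) averaged 25.6 ± 2.90 FPKM in si14-3-3ζ cells and 36.6 ± 5.22 FPKM in siCon cells at 48 h (SD, n = 4 each), with a log2 fold change of -0.49, and Melk, another kinase of dividing cells, had -0.32.

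Bub1b (BubR1, chromosome 2, 118423947 to 118467328, plus strand), a checkpoint protein that inhibits the APC/C, showed the widest gap between both responses. Bub1b at 0 h had 12.9, 12.2, 13.8 and 10.9 FPKM in si14-3-3ζ cells, against 9.96, 8.12, 11.0 and 8.06 FPKM in siCon cells. Bub1b at 24 h was at 71.0, 75.2, 73.2 and 77.0 FPKM in si14-3-3ζ cells and at 54.3, 71.1, 62.6 and 75.2 FPKM in siCon cells. Bub1b at 48 h was at 30.2, 25.1, 27.6 and 26.1 FPKM in si14-3-3ζ cells and at 46.7, 46.3, 52.2 and 40.9 FPKM in siCon cells. At 0 h only siCon replicate 3 reached into the range of si14-3-3ζ cells, at 24 h the groups overlapped, and at 48 h they were far apart with si14-3-3ζ cells lower. The knockdown difference was 0.39 ± 0.11 (adjusted p = 0.0135) at 0 h and -0.75 ± 0.11 (adjusted p = 8.41e-06) at 48 h, and its second-day and 48 h responses differed by -0.93 ± 0.15 (adjusted p = 0.000699) and -1.14 ± 0.15 (adjusted p = 3.74e-05). The 0 h call was lost without siCon replicate 2 or 4 or si14-3-3ζ replicate 3 (adjusted p up to 0.0555).

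Bub3 (chromosome 7, 138703905 to 138715412, plus strand), which brings Bub1 and BubR1 to kinetochores, moved least among the checkpoint genes on induction. Bub3 at 0 h had 36.8, 34.4, 36.5 and 32.9 FPKM in si14-3-3ζ cells, against 39.9, 35.0, 34.3 and 35.8 FPKM in siCon cells. Bub3 at 24 h was at 74.7, 71.6, 69.2 and 69.8 FPKM in si14-3-3ζ cells and at 71.6, 82.4, 72.6 and 85.1 FPKM in siCon cells. Bub3 at 48 h was at 53.4, 43.4, 44.7 and 50.2 FPKM in si14-3-3ζ cells and at 60.8, 59.8, 64.2 and 60.9 FPKM in siCon cells. The 48 h libraries did not overlap, si14-3-3ζ cells being lower, with a log2 fold change of -0.36 ± 0.075 (adjusted p = 0.000553). The other checkpoint genes were Ttk (Mps1 kinase), called lower at 48 h (-0.46), Bub1, at -0.39 with no call, and Mad2l1 (Mad2), called higher at 0 and 24 h (0.50 and 0.43) and at -0.27 with no call at 48 h. Leaving out 1 of the 8 libraries compared, Mad2l1 lost its 0 h call in 6 of 8 fits. Its 24 h call was lost in all 8 (limma adjusted p 0.0514 to 0.107). All 5 checkpoint genes had a called difference of the 48 h response, from -1.14 for Bub1b to -0.31 for Bub3, against 9.24% of loci called in that direction. Leaving out 1 of the 16 libraries compared, the call of Bub3 was lost in 11 fits, that of Bub1 in 9 and that of Mad2l1 in 1.

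Cdc20 (chromosome 4, 118105506 to 118109957, minus strand), the APC/C activator that the checkpoint restrains, was called in every knockdown comparison and changed sides. Cdc20 at 0 h had 20.9, 19.1, 17.5 and 18.5 FPKM in si14-3-3ζ cells, against 15.5, 13.0, 16.1 and 12.2 FPKM in siCon cells. Cdc20 at 24 h reached 104.8, 117.0, 119.96 and 115.6 FPKM in si14-3-3ζ cells and 74.0, 96.9, 88.6 and 108 FPKM in siCon cells. Cdc20 at 48 h was at 42.4, 40.8, 47.3 and 39.0 FPKM in si14-3-3ζ cells and at 53.8, 63.4, 65.8 and 55.8 FPKM in siCon cells. The si14-3-3ζ libraries were the higher ones at 0 h, overlapped 1 siCon library at 24 h and were the lower ones at 48 h. Log2 fold changes were 0.40 ± 0.11 (adjusted p = 0.0118), 0.32 ± 0.11 (adjusted p = 0.0246) and -0.48 ± 0.11 (adjusted p = 0.000795) at 0, 24 and 48 h. The 24 h call was lost without si14-3-3ζ replicate 2 or 3 or siCon replicate 1 or 3 (adjusted p up to 0.111). Ube2c, the ubiquitin-conjugating enzyme of the APC/C, was called lower at 48 h (-0.53), and Espl1 (separase, which cuts cohesin) was called higher at 0 h (0.39) and 24 h (0.44). Pttg1 (securin, the inhibitor of separase) had no call, with log2 fold changes of -0.07, 0.35 and -0.14.

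**Figure D5:**
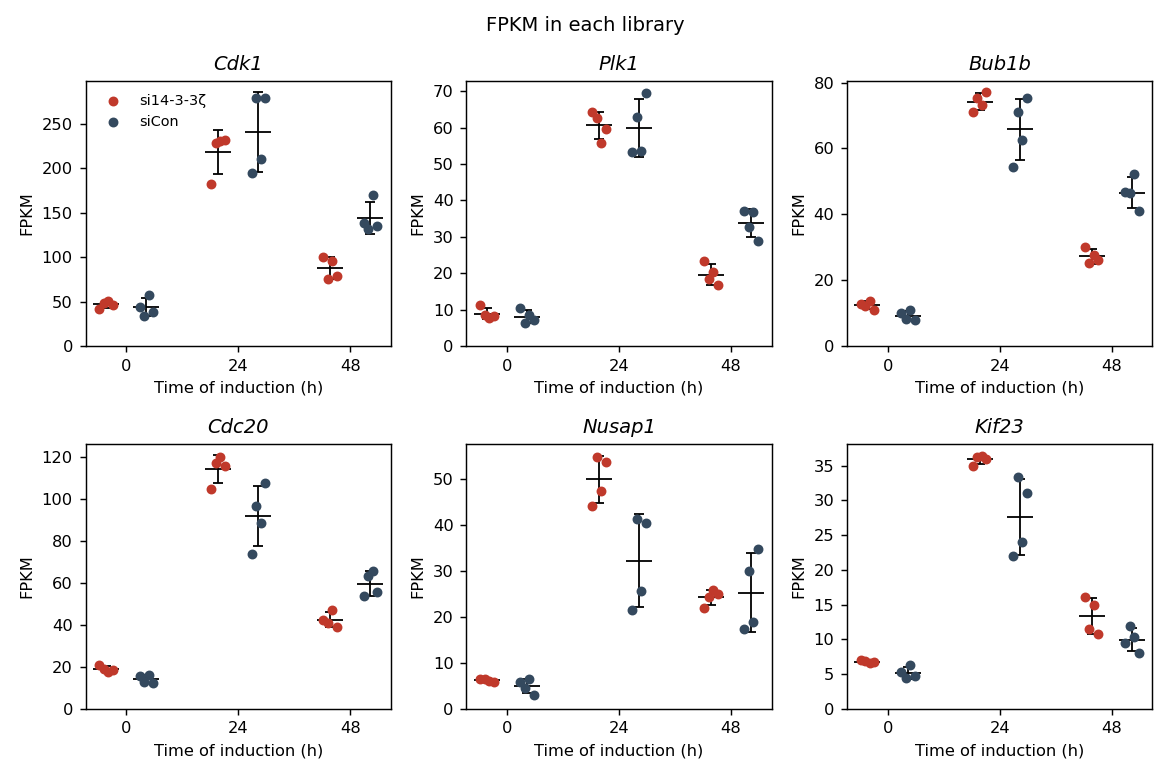
FPKM of Cdk1, Plk1, Bub1b, Cdc20, Nusap1 and Kif23 in each library by time of induction, with si14-3-3ζ cells (red) left of siCon cells (dark blue) and bars for the mean and SD (n = 4). At 48 h the si14-3-3ζ libraries of Cdk1, Plk1, Bub1b and Cdc20 lie below all siCon libraries, whereas those of Nusap1 lie among them and those of Kif23 reach above them.

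Cenpa (chromosome 5, 30969150 to 30977200, plus strand), the histone variant that marks the centromere, was the one kinetochore gene called lower at 48 h. Cenpa at 0 h had 21.0, 17.2, 22.4 and 18.3 FPKM in si14-3-3ζ cells, against 18.3, 11.8, 18.4 and 10.8 FPKM in siCon cells. Cenpa at 24 h was at 133, 123, 140.1 and 122 FPKM in si14-3-3ζ cells and at 103, 111, 102 and 124 FPKM in siCon cells. Cenpa at 48 h was at 56.0, 43.3, 49.9 and 43.4 FPKM in si14-3-3ζ cells and at 62.8, 60.1, 68.4 and 66.8 FPKM in siCon cells. Its libraries overlapped at 0 and 24 h and separated at 48 h, si14-3-3ζ cells being lower. The log2 fold change was 0.42 ± 0.13 (adjusted p = 0.033) at 0 h and -0.42 ± 0.13 (adjusted p = 0.0131) at 48 h, and the 0 h call was lost without si14-3-3ζ replicate 1 or 3 or siCon replicate 2 or 4 (adjusted p up to 0.134).

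Nuf2 (chromosome 1, 171428065 to 171461595, minus strand) and Ndc80 (chromosome 17, 71845440 to 71876197, minus strand) encode paired subunits of the complex that holds microtubules at the kinetochore. Nuf2 at 0 h had 6.89, 7.34, 6.76 and 5.08 FPKM in si14-3-3ζ cells, against 4.86, 3.34, 4.36 and 3.75 FPKM in siCon cells. Nuf2 at 24 h was at 47.9, 46.6, 57.3 and 48.0 FPKM in si14-3-3ζ cells and at 30.7, 39.2, 34.4 and 39.8 FPKM in siCon cells. Nuf2 at 48 h was at 20.6, 17.2, 18.6 and 14.5 FPKM in si14-3-3ζ cells and at 18.9, 18.0, 22.1 and 18.0 FPKM in siCon cells. The si14-3-3ζ libraries of Nuf2 were all higher at 0 and 24 h and mixed with siCon libraries at 48 h. Nuf2 had the largest called rise of the set at 0 h, 0.56 ± 0.12 (adjusted p = 0.0029), and rose by 0.46 ± 0.12 (adjusted p = 0.00706) at 24 h. Ndc80 at 0 h had 5.64, 7.73, 6.02 and 5.30 FPKM in si14-3-3ζ cells, against 5.40, 5.49, 4.29 and 4.07 FPKM in siCon cells. Ndc80 at 24 h was at 29.0, 34.6, 34.1 and 36.6 FPKM in si14-3-3ζ cells and at 20.5, 32.6, 28.1 and 34.5 FPKM in siCon cells. Ndc80 at 48 h was at 14.3, 13.0, 15.3 and 10.5 FPKM in si14-3-3ζ cells and at 11.3, 12.7, 16.0 and 13.5 FPKM in siCon cells. Ndc80 overlapped at all times and had no call, although its log2 fold changes at 0 and 24 h were 0.30 and 0.23. The other subunits of that complex, Spc25 and Spc24, had 0.53 at 24 h (called) and -0.07 (not called), and the kinetochore proteins Cenpe, a motor, and Cenpf had no call at any time.

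Of the chromosomal passenger complex, which corrects attachments and guides cytokinesis, the kinase Aurkb (aurora kinase B, chromosome 11, 68859149 to 68865166, plus strand) had no call and 3 of its partners were called lower at 48 h. Aurkb at 0 h had 8.57, 5.70, 8.06 and 7.28 FPKM in si14-3-3ζ cells, against 8.17, 5.88, 5.60 and 5.98 FPKM in siCon cells. Aurkb at 24 h was at 53.4, 59.3, 61.9 and 52.0 FPKM in si14-3-3ζ cells and at 37.0, 54.8, 40.6 and 53.2 FPKM in siCon cells. Aurkb at 48 h was at 24.6, 21.1, 24.4 and 14.9 FPKM in si14-3-3ζ cells and at 27.7, 28.3, 24.1 and 25.0 FPKM in siCon cells. Its groups overlapped at each time, and the 48 h log2 fold change was -0.32 ± 0.15 (adjusted p = 0.0882). Birc5 (survivin, chromosome 11, 117710565 to 117717069, plus strand) at 0 h had 18.5, 19.0, 22.2 and 18.3 FPKM in si14-3-3ζ cells, against 15.2, 11.8, 17.7 and 12.4 FPKM in siCon cells. Birc5 at 24 h was at 115, 135, 136 and 129.8 FPKM in si14-3-3ζ cells and at 92.5, 130.2, 99.8 and 144 FPKM in siCon cells. Birc5 at 48 h was at 48.8, 44.1, 56.5 and 44.2 FPKM in si14-3-3ζ cells and at 66.0, 66.4, 92.1 and 64.6 FPKM in siCon cells. Birc5 was higher in all si14-3-3ζ libraries at 0 h and lower in all of them at 48 h, with log2 fold changes of 0.44 ± 0.14 (adjusted p = 0.0347) and -0.56 ± 0.14 (adjusted p = 0.00264). Its 0 h call was lost without si14-3-3ζ replicate 1, 2 or 3 or siCon replicate 2 or 4 (adjusted p up to 0.112). Incenp, the scaffold of the complex, and Cdca8 (borealin) were called lower at 48 h, at -0.66 and -0.45 on the log2 scale.

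Among the spindle genes, Kif11 (Eg5, chromosome 19, 37450893 to 37496349, plus strand), the motor that pushes spindle poles apart, had the largest first-day rise in siCon cells. Kif11 at 0 h had 5.13, 4.72, 4.78 and 4.47 FPKM in si14-3-3ζ cells, against 4.56, 2.76, 3.91 and 2.82 FPKM in siCon cells. Kif11 at 24 h was at 38.7, 39.4, 37.7 and 39.2 FPKM in si14-3-3ζ cells and at 27.6, 36.9, 32.2 and 33.3 FPKM in siCon cells. Kif11 at 48 h was at 16.8, 13.4, 16.2 and 11.4 FPKM in si14-3-3ζ cells and at 17.5, 19.2, 19.5 and 16.7 FPKM in siCon cells. At 0 h siCon replicate 1 lay within the si14-3-3ζ range, at 24 h si14-3-3ζ cells were higher throughout, and at 48 h only si14-3-3ζ replicate 1 reached the lowest siCon library. Mean FPKM rose 8.12-fold on the first day in si14-3-3ζ cells, against 9.26-fold in siCon cells, and the knockdown differences were 0.38 ± 0.12 (adjusted p = 0.0374) at 0 h, 0.25 ± 0.12 (adjusted p = 0.127) at 24 h and -0.33 ± 0.12 (adjusted p = 0.0338) at 48 h. The 0 h call was lost without si14-3-3ζ replicate 1, 2 or 3 or siCon replicate 2 or 4 (adjusted p up to 0.125), and the 48 h call without replicate 2 or 4 of si14-3-3ζ cells or replicate 2 or 3 of siCon cells (up to 0.142).

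Nusap1 (chromosome 2, 119444034 to 119476980, plus strand), which bundles spindle microtubules, had the largest called knockdown difference at 24 h. Nusap1 at 0 h had 6.57, 6.45, 6.07 and 5.85 FPKM in si14-3-3ζ cells, against 5.92, 4.44, 6.43 and 3.07 FPKM in siCon cells. Nusap1 at 24 h was at 44.1, 54.8, 47.3 and 53.7 FPKM in si14-3-3ζ cells and at 21.6, 41.4, 25.6 and 40.5 FPKM in siCon cells. Nusap1 at 48 h was at 21.9, 24.3, 25.8 and 25.1 FPKM in si14-3-3ζ cells and at 17.4, 30.0, 18.8 and 34.9 FPKM in siCon cells. In siCon cells replicates 1 and 3 were well below replicates 2 and 4 at 24 and 48 h, and si14-3-3ζ cells showed no such split at 48 h. The log2 fold change at 24 h was 0.66 ± 0.21 (adjusted p = 0.0216), and that at 48 h was -0.0016 with no call, or 0.37 (adjusted p = 0.0451) among libraries 1 and 3 alone and -0.38 (adjusted p = 0.0421) among libraries 2 and 4 alone. The 24 h call was lost without replicate 2 or 4 of si14-3-3ζ cells or replicate 1 or 3 of siCon cells (adjusted p up to 0.0935).

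Kif22 (a chromokinesin, chromosome 7, 134171246 to 134185934, minus strand), whose locus includes Maz, changed least over time among the 52. Kif22 at 0 h had 88.5, 81.9, 84.6 and 84.4 FPKM in si14-3-3ζ cells, against 76.2, 69.2, 84.3 and 69.0 FPKM in siCon cells. Kif22 at 24 h was at 121, 133, 128 and 124 FPKM in si14-3-3ζ cells and at 103, 107, 110.3 and 112 FPKM in siCon cells. Kif22 at 48 h was at 93.0, 97.9, 97.7 and 94.3 FPKM in si14-3-3ζ cells and at 109, 91.1, 118 and 92.1 FPKM in siCon cells. Only the 24 h groups were apart, si14-3-3ζ cells being higher, with a log2 fold change of 0.23 ± 0.077 (adjusted p = 0.0306), the smallest called difference at that time. This call was lost without si14-3-3ζ replicate 2 or 3 or siCon replicate 1 or 2 (adjusted p up to 0.0843). Of the remaining spindle genes, Kif2c (MCAK, which takes microtubules apart), the chromokinesin Kif4 and Hmmr were called lower at 48 h (-0.31, -0.63 and -0.32). Aspm, a spindle pole protein, was called higher at 24 h (0.47). Tpx2, which activates aurora kinase A, and Dlgap5, which stabilises kinetochore fibres, had no call, with 48 h values of -0.24 and -0.14.

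Cytokinesis was the one role with a positive median log2 fold change at 48 h, 0.11 over its 5 genes. Kif23 (chromosome 9, 61765087 to 61794606, minus strand), the motor of the centralspindlin complex that organises the midzone, was the only gene of the set called higher at that time. Kif23 at 0 h had 7.02, 6.84, 6.52 and 6.80 FPKM in si14-3-3ζ cells, against 5.30, 4.38, 6.24 and 4.76 FPKM in siCon cells. Kif23 at 24 h was at 34.9, 36.2, 36.4 and 35.9 FPKM in si14-3-3ζ cells and at 22.1, 33.4, 24.1 and 31.0 FPKM in siCon cells. Kif23 at 48 h was at 16.1, 11.4, 15.0 and 10.8 FPKM in si14-3-3ζ cells and at 9.53, 11.9, 10.4 and 8.05 FPKM in siCon cells. The si14-3-3ζ libraries were higher throughout at 0 and 24 h, and at 48 h replicates 1 and 3 were above all siCon libraries while replicates 2 and 4 were among them. Log2 fold changes were 0.35 ± 0.14 (adjusted p = 0.0794), 0.38 ± 0.14 (adjusted p = 0.0361) and 0.38 ± 0.14 (adjusted p = 0.0259) at 0, 24 and 48 h. The 48 h call was lost without replicate 1 or 3 of si14-3-3ζ cells or replicate 1 or 4 of siCon cells (adjusted p up to 0.102) and in the fit of the 8 libraries compared (0.0811) or of libraries 2 to 4 (0.168). The log2 fold change there was 0.59 (adjusted p = 0.00421) among libraries 1 and 3 and 0.16 (adjusted p = 0.397) among libraries 2 and 4. The 24 h call was lost without any 1 of the 4 si14-3-3ζ libraries or without siCon replicate 1 or 3 (adjusted p up to 0.138). Kif23 kept 22.4% of its first-day gain in si14-3-3ζ cells, against 21.3% in siCon cells, the lowest share of the set in siCon cells.

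The scaffold Anln (anillin) and Ect2, the exchange factor that activates RhoA at the cleavage site, were called higher at 24 h (0.49 and 0.50) and had positive values with no call at 48 h (0.16 and 0.11). The motor Kif20a was called higher at 0 h (0.39) and 24 h (0.39) and stood at -0.26 with no call at 48 h. Prc1, which bundles midzone microtubules, was called lower at 48 h (-0.34), the only cytokinesis gene with such a call. Leaving out 1 of the 8 libraries compared, Anln kept its 24 h call in all 8 fits. Calls were lost in 6 of 8 fits for Ect2 at 24 h, Kif20a at 0 h and Prc1 at 48 h. That of Kif20a at 24 h was lost in 4 of 8.

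Top2a (topoisomerase II alpha, chromosome 11, 98854257 to 98885503, minus strand, a locus that also holds the small RNA SNORA32) untangles sister chromatids. Top2a at 0 h had 11.9, 14.8, 16.9 and 12.0 FPKM in si14-3-3ζ cells, against 15.2, 11.3, 14.4 and 11.7 FPKM in siCon cells. Top2a at 24 h was at 92.6, 110.4, 97.7 and 121 FPKM in si14-3-3ζ cells and at 102, 139, 93.1 and 122 FPKM in siCon cells. Top2a at 48 h was at 40.1, 44.9, 42.2 and 35.1 FPKM in si14-3-3ζ cells and at 61.4, 79.8, 64.3 and 69.9 FPKM in siCon cells. The groups were mixed until 24 h and wholly apart at 48 h, when si14-3-3ζ cells were lower, with a log2 fold change of -0.75 ± 0.13 (adjusted p = 0.00011). Mki67 (Ki-67, chromosome 7, 142881471 to 142908062, minus strand), which coats mitotic chromosomes, took another course. Mki67 at 0 h had 4.26, 6.56, 5.66 and 4.00 FPKM in si14-3-3ζ cells, against 3.94, 3.06, 3.34 and 2.89 FPKM in siCon cells. Mki67 at 24 h was at 24.4, 22.9, 25.7 and 26.8 FPKM in si14-3-3ζ cells and at 15.6, 20.1, 17.6 and 18.6 FPKM in siCon cells. Mki67 at 48 h was at 8.46, 9.74, 10.3 and 7.62 FPKM in si14-3-3ζ cells and at 8.93, 11.4, 11.9 and 8.18 FPKM in siCon cells. Mki67 was higher in every si14-3-3ζ library at 0 and 24 h, with log2 fold changes of 0.49 ± 0.13 (adjusted p = 0.0143) and 0.45 ± 0.13 (adjusted p = 0.015), and its groups overlapped at 48 h. The 0 h call was lost without si14-3-3ζ replicate 2 or 3 (adjusted p up to 0.0619) and the 24 h call without siCon replicate 1 (0.0534). The condensin subunits Ncapd2, Ncapg and Ncaph, which compact chromosomes, were called lower at 48 h (-0.46, -0.69 and -0.43), while their partners Smc2 and Smc4 stood at -0.23 and -0.20 with no call.

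Of the transcription factors of these genes, Foxm1 (chromosome 6, 128312985 to 128325911, plus strand, a locus that also holds 4933413G19Rik) was not called in any knockdown comparison. Foxm1 at 0 h had 15.2, 11.2, 16.2 and 10.2 FPKM in si14-3-3ζ cells, against 11.0, 7.69, 13.0 and 11.4 FPKM in siCon cells. Foxm1 at 24 h was at 52.7, 50.3, 54.8 and 53.0 FPKM in si14-3-3ζ cells and at 38.7, 45.0, 47.4 and 48.1 FPKM in siCon cells. Foxm1 at 48 h was at 25.8, 22.7, 22.7 and 19.0 FPKM in si14-3-3ζ cells and at 29.1, 21.9, 32.8 and 24.3 FPKM in siCon cells. Its si14-3-3ζ libraries were all higher at 24 h and mixed with siCon libraries at 0 and 48 h, and the log2 fold changes were 0.27, 0.23 and -0.24. Mybl2 (B-Myb, chromosome 2, 162880423 to 162910424, plus strand) at 0 h had 3.09, 2.69, 6.00 and 2.98 FPKM in si14-3-3ζ cells, against 2.93, 2.70, 2.37 and 1.83 FPKM in siCon cells. Mybl2 at 24 h was at 10.4, 13.1, 13.7 and 13.5 FPKM in si14-3-3ζ cells and at 12.0, 17.3, 16.6 and 11.8 FPKM in siCon cells. Mybl2 at 48 h was at 7.63, 6.62, 7.11 and 6.92 FPKM in si14-3-3ζ cells and at 11.0, 7.81, 12.3 and 9.44 FPKM in siCon cells. At 48 h the lowest siCon library lay just above the highest si14-3-3ζ library, and the log2 fold change was -0.45 ± 0.17 (adjusted p = 0.0394), with a difference of the 48 h responses of -0.85 ± 0.25 (adjusted p = 0.0207). The 48 h call was lost without si14-3-3ζ replicate 2, 3 or 4 or siCon replicate 1, 3 or 4 (adjusted p up to 0.129), and the difference of responses without siCon replicate 3 of 48 h (0.0513).

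In all, 22 of the 52 genes were called higher in si14-3-3ζ cells at 0 or 24 h, where 17.9% of loci were, and 7 of those 22, Birc5, Bub1b, Ccna2, Cdc20, Cdca8, Cenpa and Kif11, were among the 25 called lower at 48 h, a pair of calls that 0.508% of loci had. Of these 7, only Cdc20 kept an early call, that at 0 h, whichever 1 of the 8 libraries compared was left out. Its 48 h call was kept likewise. No call in any knockdown comparison or difference of responses was found for 11 genes, against 40.0% of loci, and these were Aurkb, Cenpe, Cenpf, Dlgap5, Foxm1, Ndc80, Pttg1, Smc2, Smc4, Spc24 and Tpx2.

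Other lists of division genes, chosen with these results known, give the surroundings. Of 88 further mitotic genes tested from a list of 97, at 0 h 10 were called higher and 1 lower in si14-3-3ζ cells, at 24 h 19 were higher and 5 lower, and at 48 h 2 were higher and 32 lower, with medians of 0.17, 0.22 and -0.26, to be read against the shares of all loci called higher and lower at 0 h (8.1% and 9.16%), 24 h (14.5% and 14.0%) and 48 h (23.3% and 22.8%). Cks1b, a subunit of cyclin-CDK complexes, averaged 64.4 ± 3.67 FPKM in si14-3-3ζ cells and 116 ± 11.2 FPKM in siCon cells at 48 h (SD, n = 4 each). Its log2 fold change was -0.84 ± 0.083 (adjusted p = 9.33e-08), and that of the condensin II subunit Ncapg2 was -1.11 ± 0.14 (adjusted p = 1.87e-06). Stmn1 (stathmin, which sequesters tubulin) was instead higher at 0, 24 and 48 h (0.53, 0.79 and 0.77), and Psrc1 was higher at 24 and 48 h (0.93 and 0.83). Plk4, the kinase of centriole duplication, was called lower at all 3 times (-0.37, -0.50 and -0.65).

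Replication genes, which act before mitosis, had a median difference near 0 at 24 h and were lower at 48 h in the majority. Of 44 tested from a list of 47, at 0 h 5 were called higher and 0 lower, at 24 h 2 were higher and 6 lower, and at 48 h 0 were higher and 31 lower, with medians of 0.14, -0.05 and -0.43. Thymidine kinase Tk1 averaged 57.5 ± 7.77 FPKM in si14-3-3ζ cells and 85.8 ± 8.97 FPKM in siCon cells at 24 h, and at 48 h 24.7 ± 1.29 FPKM in si14-3-3ζ cells and 67.6 ± 9.34 FPKM in siCon cells (SD, n = 4 each). Its log2 fold changes were -0.57 ± 0.11 (adjusted p = 0.00075) and -1.41 ± 0.11 (adjusted p = 7.15e-09). The replication clamp Pcna was called lower at 24 h (-0.38) and 48 h (-0.40), and Tyms, which makes thymidylate, and the helicase subunit Mcm5 had -0.88 and -0.90 at 48 h. Of the 19 tested MuvB, DREAM and E2F genes of 21, 7 were called lower at 48 h and 1 higher, among them Lin9 of the MuvB core (-0.73) and E2f2 (-0.89). The 6 tested APC/C genes of 13 gave 3 lower and 1 higher at 48 h, with the activator Fzr1 at -0.69, and the 10 tested cohesin genes of 12 gave 2 lower and 2 higher, with the cohesin subunit Rad21 at -0.32. These counts stand beside 8.1% of all loci called higher and 9.16% lower at 0 h. The shares were 14.5% and 14.0% at 24 h and 23.3% and 22.8% at 48 h. The cohesin counts, and the 6 replication genes called lower at 24 h, were near these shares.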

How the data were processed

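Total RNA was made into libraries with the Truseq V2 kit by the authors, who aligned paired-end reads of 150 bp to mouse build NCBIM37 with TopHat2 2.0.11 and computed FPKM with Cufflinks 2.2.0, per the submitters' processing notes and the deposited table. The FPKM values deposited by the authors cover 9262 loci, of which 576 carry more than 1 symbol and 136 none. Genes were matched by symbol, and positions come from GENCODE M1.

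Loci with at least 1 FPKM in at least 4 of the 24 libraries (9251) were tested with limma 3.58.1 in R 4.3.3 on log2(FPKM + 1), a scale that understates the change of low genes, with 1 mean for each of 6 groups (18 residual degrees of freedom), a trended prior and Benjamini-Hochberg adjustment over all 9251 loci. Calls had an adjusted p under 0.05, and errors of log2 fold changes are SE. Tests were two-sided and were tested on simulated data. Tables were handled with Python 3.11.15 and pandas 2.3.3 and drawn with matplotlib 3.10.9.

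The 52 genes and all lists were chosen with earlier results of these data known. Values in every library are given for 15 genes fixed by role, for the largest and smallest called change of each knockdown comparison and difference of responses, and for genes called against the majority. From the other lists, genes with the smallest adjusted p are named. Alternatives were other pseudocounts (0.1), filters, scalings, priors, sample sets, a replicate block and leaving out each library.

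Groups share replicate numbers 1 to 4. Deviations of same-numbered libraries from their group means correlated above 0.1 in every pair for the knockdown at 24 h (0.101 to 0.443), both days in siCon cells (0.198 to 0.506 and 0.264 to 0.569) and in si14-3-3ζ cells (0.135 to 0.546 and 0.111 to 0.427) and 48 h in siCon cells (0.179 to 0.502), but not for the knockdown at 0 h (lowest 0.0839) or 48 h (0.0804) or for 48 h in si14-3-3ζ cells (0.0439).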

Additional observations from a re-analysis of the deposited data

Results flagged for a closer look

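Among 114 groups of 4 libraries of the named genes, 6 held a library far from the other 3. Chance gives about 1 in 20, so the number flagged was near that given by chance. Cdk1 stood at 182 FPKM in si14-3-3ζ replicate 1 at 24 h, with the others at 229 to 232 FPKM. Nuf2 stood at 57.3 FPKM in si14-3-3ζ replicate 3 at 24 h, with the others at 46.6 to 48.0 FPKM. Mybl2 stood at 6.00 FPKM in si14-3-3ζ replicate 3 at 0 h, with the others at 2.69 to 3.09 FPKM. In siCon cells, replicate 3 at 48 h was high for Cdk1 (170.3 FPKM, others 132 to 138 FPKM) and for Birc5 (92.1 FPKM, others 64.6 to 66.4 FPKM), and replicate 1 at 0 h was high for Aurkb (8.17 FPKM, others 5.60 to 5.98 FPKM).

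The response to induction differed between si14-3-3ζ and siCon cells, by limma's test of the difference, for 21 of the 52 genes on the second day, against 4.23% of all loci in that direction, and for 28 over the whole 48 h, against 9.24%. The second-day count was 10 without siCon replicate 1 of 24 h, and the 48 h count was 21 without siCon replicate 3 of 48 h.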

How the results depend on the processing

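The rise of the set on the first day and its fall in si14-3-3ζ cells on the second day were called for all 52 genes when any 1 library was left out. Otherwise the counts of called genes ranged, leaving out 1 library, from 2 to 15 (knockdown at 0 h, 11 with all), 6 to 17 (24 h, 17 with all), 18 to 28 (48 h, 26 with all), 48 to 50 (second day in siCon cells), 50 to 52 (48 h in si14-3-3ζ cells), 10 to 22 (difference of the second day, 21 with all) and 21 to 31 (difference over 48 h, 28 with all). A fit of only the groups compared gave 4 at 0 h. Libraries numbered 2 to 4 gave 4 at 24 h and 11 for the difference of the second day. In a split added after seeing the data, libraries 1 and 3 gave 1 at 0 h, 31 for the second day in siCon cells, 12 and 8 for the differences of the second day and 48 h, and a positive call for Nusap1 at 48 h (0.37). Libraries 2 and 4 gave 20 at 0 h, 8 at 24 h, 3 for the difference of the first day, and a negative call for Nusap1 at 48 h (-0.38). The cause of these shifts was not tested, and each split also holds fewer libraries. No share of all loci called is given for these fits or for the replicate block below. Their counts therefore do not tell a shift in these genes from a shift in calls over all loci. Read counts were not used, so the counting error of low values could not be computed.

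With the replicate number as a block, the counts were 13, 18 and 28 for the knockdown at 0, 24 and 48 h, and 0, 29 and 33 for the differences of the first day, second day and 48 h. Of 624 single values 19 became called under the block and 0 lost their call.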
